A study of Mus musculus with 6 samples.

Results

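The cytosolic and mitochondrial molecular chaperones were followed in the liver of mice that lack chromogranin A (Chga), the precursor of several peptide hormones stored in the granules of neuroendocrine cells. The group comprised the genes whose symbol starts with Hsp, Dnaj or Bag and a digit, the subunits of the cytosolic chaperonin (Tcp1 and Cct2 to Cct8), and the HSP90 cochaperones Stip1, Ahsa1 and Chordc1. Hspa5 and Hsp90b1, which work in the endoplasmic reticulum, and the proteoglycan Hspg2 were left out, while J-domain proteins of that compartment stayed in through their symbols. Each gene was read by its brightest probe set among those annotated to 1 gene alone. In this way 77 genes were found among 12393 genes on the array, and genes of the rule without such a probe set were not analysed here. The members were chosen by symbol, not by their values, but with earlier results of these data known. Livers came from 3 Chga knockout and 3 wild-type mice, all male and aged 12 weeks, with 1 array for each sample. The knockout is named in the labels as a strain of its own, which gives no tissue restriction of the deletion, no agent given to either group, and no genetic background for the wild type. Whether the mice were fed, when they were dissected and how the arrays were batched are not given there. The replicates are samples of one group, so p-values reflect the spread among these samples alone.

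Chaperones hold, fold and refold other proteins. HSP70 proteins bind short stretches of unfolded chains in a cycle driven by ATP, J-domain proteins (HSP40) deliver the chains and trigger ATP cleavage, and BAG, Hspbp1 and HSP110 proteins exchange the nucleotide so that the chain is released. HSP90 takes over near-native clients such as steroid receptors and kinases with the help of cochaperones, small heat shock proteins hold unfolded chains without ATP, and the ring-shaped chaperonins enclose them: Hspd1 with Hspe1 in mitochondria, and TRiC in the cytosol, where actin and tubulin are its main clients. Protein stress frees heat shock transcription factors from chaperones, and they then induce many of these genes through heat shock elements, repeats of the letters GAA and TTC. The liver holds high levels of chaperones because it makes and secretes large amounts of protein.

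The 6 arrays had been brought to one level before deposit, with trimmed means of 2501.32 to 2501.42, and between 64.4% and 76.9% of probe sets stood above a background set by dim bacterial control probes. The ratios of 5′ to 3′ signal, a sign of RNA quality, were 1.23 to 1.29 for GAPDH and 0.351 to 0.366 for actin. Hepatocyte genes were bright, with Alb at 161495 to 210871 over the 6 arrays, and 0 of 6 cholangiocyte markers on the array passed the filter on dim probe sets. Chga itself read 61.5, 44.5 and 231 in knockout against 167, 185 and 42.5 in wild type. Its groups overlap and it lay below the filter, so it does not check the group labels. Tests were made with limma on log2(intensity + 16) over the 13576 probe sets in the upper 60% by mean, with Benjamini-Hochberg adjustment over all of them. A change is the knockout mean less the wild-type mean of these log2 values, a scale that understates changes of dim genes, and is given with the SE of the fit and n = 3 per group.

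Of the 77 chaperone genes, 65 passed the filter, and 1 of them, the constitutive HSP70 gene Hspa8, was higher in knockout liver at an adjusted p under 0.05. That is 1.54% of the members kept, beside 0.423% of the 8047 genes kept. At an unadjusted p under 0.05, 4 members were higher (Hspa1b, Hspa8, Hsph1 and Dnajb1), 6.15% beside 4.57% of all genes kept. Dnajc10 was the only lower one, 1.54% beside 5.69%. All 3 knockout arrays lay above all 3 wild-type arrays for 6 members (9.23%, against 7.77% of all genes) and below them for 2 (3.08%, against 7.84%). The median change over the 65 members was 0.023, beside -0.015 over all genes kept, and 36 members were above 0, 55.4% beside 47.3% of all genes kept. The shares of higher members were near those of all genes, those of lower members were below them, and the adjusted call was a single gene. In bulk liver, fewer cells of a type and less RNA per cell cannot be told apart.

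**Figure D1:**
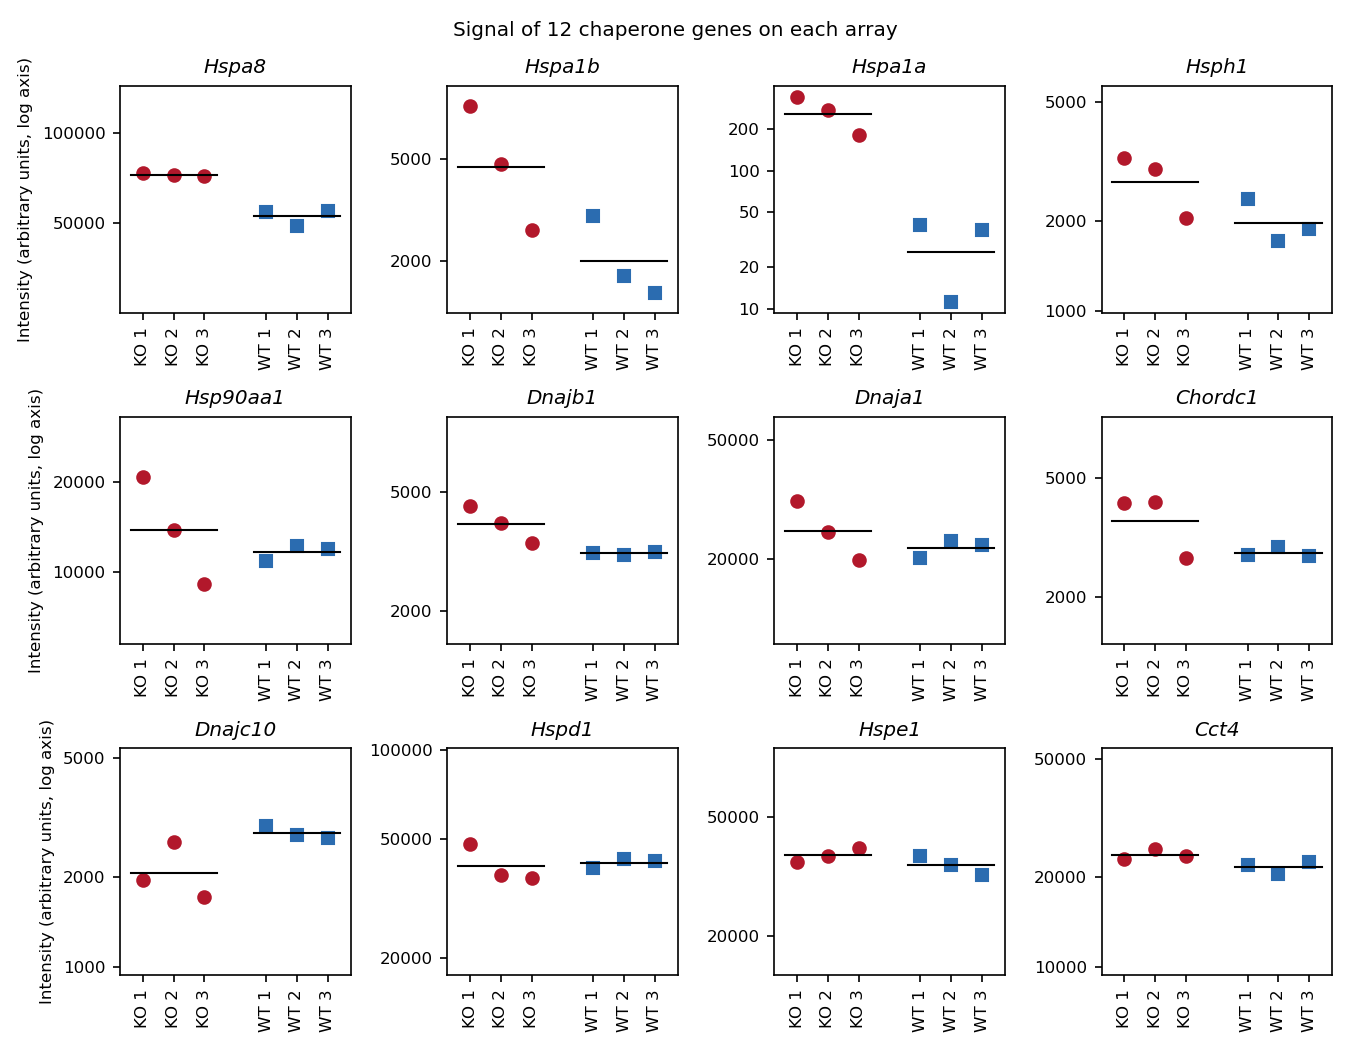
Intensity (arbitrary units, log axis) of 12 chaperone genes on each of the 3 knockout (red circles) and 3 wild-type (blue squares) arrays, with lines at the geometric mean of each group. Hspa8 is separated between groups with little spread, while Hspa1b, Hsph1 and Hsp90aa1 are spread widely over the knockout arrays, with knockout replicate 1 the highest.

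The HSP70 and HSP110 genes held the adjusted call and the largest change among the kept members. Hspa8 encodes the constitutive cytosolic HSP70 that serves protein folding, clathrin uncoating and chaperone-mediated autophagy. Its brightest probe set read 73536, 72502 and 71973 in knockout and 54503, 49005 and 54690.0 in wild type. The 3 knockout values lie close together and above all wild-type values, with means of 72670.5 ± 795 and 52733 ± 3229.9 (SD, n = 3 each). Hspa8 rose 1.38-fold (log2 change 0.46 ± 0.08 SE, adjusted p = 0.0413 with limma and Benjamini-Hochberg), and the call rests on the full set of arrays. It was lost on leaving out any one of the 6, with adjusted p-values from 0.0608 to 0.136 and changes from 0.41 to 0.49. It was also lost with median centring, with no filter, without the intensity trend of the fit and with the mean of all kept probe sets, at adjusted p-values from 0.0506 to 0.369 (limma). The name of this probe set ends in x_at, by which the maker marks probes that also match other transcripts. Another x_at probe set of Hspa8 read 39715, 37788 and 37573 against 29305, 27382 and 27791, a change of 0.45 that missed the threshold (adjusted p = 0.0504, limma). A probe set without that ending read 20501, 19239.6 and 20390.1 against 20145, 16570.5 and 16492, so its groups overlap, with a change of 0.18 ± 0.10 (adjusted p = 0.607, limma). The dimmest kept one, at 0.40 ± 0.44, overlapped too.

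Hspa1b and Hspa1a are the neighbouring genes of the stress-induced HSP70, which is scarce in unstressed tissue. Hspa1b read 8045, 4787 and 2634 in knockout and 3013, 1751 and 1508 in wild type. Knockout replicate 1 was the highest array and knockout replicate 3 lay below wild-type replicate 1, so the groups overlap. The change of 1.22 ± 0.36 (2.33-fold) had an unadjusted p of 0.00637 and an adjusted p of 0.243 with limma, and was 0.83 without knockout replicate 1 and 1.63 without knockout replicate 3. The other kept probe sets of Hspa1b gave 1.18 ± 0.45 and 0.79 ± 0.40. Hspa1a was dim and below the filter, at 342, 274 and 179.9 in knockout and 40.5, 11.2 and 37.3 in wild type. All its knockout values lie above all wild-type values, but only 2 of 3 knockout arrays and 0 of 3 wild-type arrays were above background. In the fit without the filter its change was 2.65 ± 0.60, with an adjusted p of 0.168 (limma). The transcripts of both genes are nearly the same, so which of them each probe set measured is uncertain.

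The sequences before both genes are also nearly the same, which is why they are shown together. The windows run from 250 bases before the annotated start and show the first 30 bases from it, on the minus strand of GRCm38.p6, at chr17:34959209-34959488 for Hspa1b and chr17:34972127-34972406 for Hspa1a. Capitals mark matches to the 2-unit heat shock element, spelled GAANNTTC or TTCNNGAA, each of which reads the same on both strands.
Hspa1b: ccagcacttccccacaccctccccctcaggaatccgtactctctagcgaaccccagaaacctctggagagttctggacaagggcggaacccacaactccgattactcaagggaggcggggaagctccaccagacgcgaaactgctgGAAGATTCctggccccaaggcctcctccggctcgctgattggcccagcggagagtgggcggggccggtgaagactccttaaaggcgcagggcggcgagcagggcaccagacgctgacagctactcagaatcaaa
Hspa1a: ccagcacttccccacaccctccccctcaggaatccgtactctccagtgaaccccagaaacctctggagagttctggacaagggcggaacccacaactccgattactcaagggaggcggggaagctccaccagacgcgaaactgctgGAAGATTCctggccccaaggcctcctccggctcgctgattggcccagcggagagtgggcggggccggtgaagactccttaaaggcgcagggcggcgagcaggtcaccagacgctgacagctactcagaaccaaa
Over windows of 300 bases, to 50 bases from the start, these differ at 4 positions and are 98.7% the same. Each holds 1 match, GAAGATTC, 104 bases before the start. In all, 64 of the 77 chaperone genes matched a promoter window in the RefSeq table (build GRCm38.p6), and Hspa8, Hsp90aa1, Hspa9 and Cct4 are among those named only. The 2-unit element was present in 19 of these 64 genes (29.7%), beside 17% of all 27025 genes in the table and 15.1% of all windows.

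The stricter 3-unit element, spelled GAANNTTCNNGAA or TTCNNGAANNTTC (each the other on the opposite strand, and each holding the 2-unit form), was present in 5 of the 64 genes (7.81%), beside 0.662% of all genes and 0.603% of all windows. They were Hsph1, Chordc1, Hspd1, Hspe1 and Dnajb6, and 3 are shown because their signals differed in how they stood between the groups. They are Hsph1 at chr5:149636286-149636565 (minus strand), Chordc1 at chr9:18292017-18292296 (plus strand) and Hspe1 at chr1:55087898-55088177 (plus strand). All matches of either form within the bases shown are in capitals. A further 2-unit match of Chordc1, TTCCGGAA, begins 33 bases after its start and lies past the bases shown.
Hsph1: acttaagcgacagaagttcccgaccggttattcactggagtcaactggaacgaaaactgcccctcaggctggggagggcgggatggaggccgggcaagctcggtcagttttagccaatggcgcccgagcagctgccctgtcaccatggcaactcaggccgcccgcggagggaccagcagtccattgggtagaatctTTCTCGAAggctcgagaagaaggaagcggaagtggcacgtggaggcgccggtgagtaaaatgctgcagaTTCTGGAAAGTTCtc
Chordc1: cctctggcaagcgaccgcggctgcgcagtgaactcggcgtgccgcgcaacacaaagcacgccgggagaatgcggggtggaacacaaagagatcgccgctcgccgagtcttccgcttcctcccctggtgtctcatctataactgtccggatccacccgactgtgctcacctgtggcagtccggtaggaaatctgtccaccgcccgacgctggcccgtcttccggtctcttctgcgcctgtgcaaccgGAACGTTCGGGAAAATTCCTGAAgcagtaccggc
Hspe1: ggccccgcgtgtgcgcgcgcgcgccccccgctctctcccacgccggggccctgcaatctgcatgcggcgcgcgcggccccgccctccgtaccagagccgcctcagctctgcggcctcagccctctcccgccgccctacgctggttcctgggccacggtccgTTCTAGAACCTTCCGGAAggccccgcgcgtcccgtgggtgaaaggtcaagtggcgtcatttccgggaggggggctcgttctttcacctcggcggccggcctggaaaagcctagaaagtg
Chordc1 holds 3 overlapping 3-unit matches around its start, Hspe1 holds 2 that begin 89 and 84 bases before it, and Hsph1 has 1 that begins 15 bases after it. The windows of Hspe1 and Hspd1 share 285 bases on opposite strands, so both genes hold the same matches. The changes beside these matches were 0.46 for Hsph1 and 0.35 for Chordc1, but 0.11 for Hspe1, -0.04 for Hspd1 and 0.02 for Dnajb6, and 0 of these 5 genes passed the adjusted threshold. A match is a description of the letters only.

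Hsph1, an HSP110 that releases nucleotide from HSP70 and disaggregates proteins with it, read 3251, 2988 and 2050.4 in knockout against 2368, 1716 and 1875 in wild type. Knockout replicates 1 and 2 were the highest of the 6 arrays and replicate 3 fell inside the wild-type range. The change was 0.46 ± 0.20 with an adjusted p of 0.483 (limma), and its other probe set gave 0.33 ± 0.26. Hspa4, a second HSP110, read 6208, 6261 and 5803 against 5974, 7112 and 6525, with a change of -0.10 ± 0.11, while its other kept probe sets stood at 0.27 and 0.06. The mitochondrial HSP70 Hspa9, which pulls proteins through the inner membrane, read 24913, 22402 and 20276 against 22225, 27195 and 21799.6, at -0.07 ± 0.12. A dimmer probe set of Hspa9 lay lower in all 3 knockout arrays (15934, 15907 and 15368 against 17043, 21113 and 19323), with a change of -0.28 ± 0.10 and an adjusted p of 0.388 (limma). Over this class 8 of 11 genes were kept, 5 higher and 3 lower, with a median of 0.08 and a range from -0.10 to 1.22.

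Hsp90aa1, the stress-inducible cytosolic HSP90, was bright and varied widely among the knockout arrays. Its brightest probe set read 20858, 13803 and 9145 in knockout and 10907, 12233 and 11994 in wild type. The knockout values span the wild-type ones on both sides, with means of 14602 ± 5897 and 11711 ± 707 (SD), and the change was 0.24 ± 0.23 (adjusted p = 0.777, limma). Without knockout replicate 1 it turned to -0.06, and without knockout replicate 3 it was 0.54. A second probe set read 11727, 9871 and 7112 against 5983, 5988 and 6068, so that here all knockout arrays lay above wild type. Its change was 0.64 ± 0.16, with an unadjusted p of 0.00248 and an adjusted p of 0.155 (limma). The last kept probe set, at 9108, 5928 and 4161 against 4359, 5144 and 4569.8, gave 0.38 ± 0.23 with overlapping groups. In all 3 probe sets knockout replicate 1 was the highest of the 6 arrays and knockout replicate 3 the lowest of the knockout arrays.

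The 3 HSP90 cochaperones were all above 0 and none passed the adjusted threshold, with 0 of 3 also at an unadjusted p under 0.05 (limma). Chordc1, which binds HSP90, read 4133, 4145 and 2693 against 2754, 2938 and 2739. Knockout replicates 1 and 2 were far above wild type and replicate 3 was below all of it, which gave 0.35 ± 0.17 (adjusted p = 0.549). Ahsa1, which speeds up the ATPase of HSP90, read 8666, 9006 and 8453 against 8180.1, 7559 and 8114, so its groups do not overlap, at 0.13 ± 0.10. Stip1 (HOP), which holds HSP70 and HSP90 together, read 1749, 2128 and 1529.7 against 1731, 1541 and 1614, at 0.13 ± 0.17 with overlapping groups. A list of 19 other HSP90 partners outside the rule, of which 14 were kept, had 8 higher and 6 lower and a median of 0.04. It had 0 adjusted calls. At an unadjusted p under 0.05 it had 1 higher and 0 lower (limma), beside 4.57% and 5.69% of all genes kept. Its smallest p was that of the myosin chaperone Unc45a, at 1015, 939 and 1281 against 392, 709 and 781 (0.81 ± 0.29, adjusted p = 0.366, limma; 0.51 without wild-type replicate 1).

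The J-domain proteins were the largest class, with 38 genes, of which 32 were kept. They split into 16 higher and 16 lower with a median of -0.01, and 0 passed the adjusted threshold (limma). Unadjusted p-values under 0.05 (limma) were found for 1 higher and 1 lower gene, together 6.25%, beside 4.57% and 5.69% of all genes kept. Dnajb1, the stress-inducible HSP40 that works with Hspa8 and HSP110 in disaggregation, read 4505, 3951 and 3383 against 3133, 3085 and 3154. All knockout arrays were above the narrow wild-type range, and the change was 0.33 ± 0.14 (unadjusted p = 0.0371, adjusted p = 0.469). Its other probe set, at 2166, 2281 and 2467 against 1696, 1529 and 1981, was apart in the same direction, with 0.41 ± 0.15. Dnaja1, an abundant farnesylated cytosolic HSP40, read 31238, 24568 and 19858 against 20143, 22981 and 22266, with overlapping groups and a change of 0.19 ± 0.15.

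Dnajc10 (ERdj5), a disulfide reductase of the endoplasmic reticulum that helps to clear misfolded glycoproteins, went the other way. It read 1958, 2626 and 1708 in knockout and 2968, 2767 and 2691 in wild type, with every knockout array below every wild-type array. The change was -0.44 ± 0.17 with an unadjusted p of 0.0267 and an adjusted p of 0.432 (limma). Its other kept probe sets stood at -0.33 ± 0.16, also with groups apart, and at -0.26 ± 0.29. Dnajb12, also of that compartment and named after its values were seen, was counted with the other J-domain genes. It stood at -0.12 ± 0.24, and its other kept probe set at 0.01. Of the 5 kept J-domain proteins assigned to that compartment here, Dnajc10 included and Dnajb12 not, 4 were above 0 and 1 below, with a median of 0.10. At an unadjusted p under 0.05, 0 were higher and 1, Dnajc10, was lower (limma). One of the 4, Dnajc3, was at 0.0015 ± 0.10, and its 4 other kept probe sets were below 0, from -0.23 to -0.09. Dnajc1, picked like Dnajc3 after its values were seen, read 4991, 4218 and 4340.5 against 3543, 4144 and 3963, with groups apart and a change of 0.22 ± 0.13. The other kept probe set of Dnajc1 read 1841, 485 and 759 against 785, 1002 and 706, with overlapping groups and 0.10 ± 0.40.

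Among the 4 J-domain proteins of mitochondria 2 were higher and 2 lower, with a median of -0.00044. Dnaja3 (Tid1), the main J-domain partner of Hspa9, read 9939, 10489.5 and 10707 against 10081, 12114 and 10237, at -0.05 ± 0.11, whereas its dimmer probe set lay lower in all knockout arrays, at -0.48 ± 0.23 (adjusted p = 0.544, limma). The other 23 kept J-domain genes had 10 higher and 13 lower. The extremes of the class, named after their values were seen, were dim and widely spread: Dnajb5 was at 0.37 ± 0.50 and Dnajb8 at -0.50 ± 0.45.

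The nucleotide exchange factors of the BAG family and Hspbp1 were all kept (7 of 7), with 3 higher and 4 lower, a median of -0.03, a range from -0.47 to 0.24 and 0 calls at either threshold with limma. Bag3, a stress-inducible factor that directs clients to autophagy together with Hspb8, read 1933, 1962 and 1352 against 1986, 952 and 1628. Its SD was 525 in wild type and 344 in knockout, and the change of 0.24 ± 0.26 turned to -0.06 without wild-type replicate 2. Bag1, which links HSP70 to the proteasome, read 8272, 9524 and 8759.8 against 7978, 8022 and 8546, at 0.11 ± 0.10, and Hspbp1 stood at 0.16 ± 0.19. The lowest of the class was Bag2, an inhibitor of the ubiquitin ligase CHIP, at 581, 612 and 457 against 462, 912 and 1054 (-0.47 ± 0.33), named after its values were seen.

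Of the small heat shock proteins 4 of 6 were kept, 2 higher and 2 lower. Hspb1, the best known holding chaperone of the family, read 931, 750.0 and 884 against 885, 936 and 1124, a change of -0.19 ± 0.21. Hspb8, the partner of Bag3, read 8239.6, 9061 and 7767 against 6998, 7824 and 7923 (0.14 ± 0.11), and its other kept probe sets were at 0.23 and -0.18. Hspb11, an intraflagellar transport subunit in spite of its name, was lower in all knockout arrays, at 1220.2, 1231 and 1075 against 1329, 1312 and 1561 (-0.25 ± 0.17, adjusted p = 0.673, limma). Hspb8 and Hspb11 were chosen after their values were seen.

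The mitochondrial chaperonin genes were among the brightest members and lay close together between the groups. Hspd1 (HSP60), the ring subunit, read 48119, 37883 and 37004 in knockout and 40220.1, 42974 and 42340.1 in wild type. Knockout replicate 1 was the highest of the 6 arrays and the other two knockout arrays were the lowest, so the change was -0.04 ± 0.11. Hspe1 (HSP10), its lid, read 35382, 37044 and 39386 against 37058, 34581 and 31980.0, at 0.11 ± 0.09. These genes share a bidirectional promoter, yet knockout replicate 1 was the highest knockout array for Hspd1 and the lowest for Hspe1. Neither p was under 0.05 with limma, which does not show that the levels were equal.

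The cytosolic chaperonin TRiC, a ring of 8 different subunits, had 8 of 9 genes kept, with 5 higher and 3 lower. By their brightest probe sets the median was 0.08 and the range ran from -0.13 to 0.17. Tcp1 read 13160.1, 13206 and 14329.5 against 11734, 11959 and 12508, with groups apart and a change of 0.17 ± 0.09 (adjusted p = 0.597, limma). Cct4 was also apart, at 23046, 24856 and 23609 against 21979.6, 20619 and 22545, with 0.13 ± 0.09 (adjusted p = 0.653). That probe set of Cct4 is one whose name ends in x_at. The other kept probe sets of Cct4 all overlapped between groups, with changes from -0.20 to 0.11. The other subunits overlapped between groups, at 0.14 ± 0.10 for Cct5, 0.10 ± 0.09 for Cct2, 0.06 ± 0.10 for Cct3, -0.01 ± 0.09 for Cct6a, -0.01 ± 0.10 for Cct8 and -0.13 ± 0.11 for Cct7. Each ring holds 1 copy of every subunit, and by the brightest probe sets the changes of the subunits were small and of both signs. Other kept probe sets reached -0.34 for Cct7 and 0.65 for Cct3. Prefoldin and the tubulin folding cofactors, which hand chains to and from TRiC, had 15 of 15 genes on the array kept. Of these 9 were higher and 6 lower, with 0 adjusted calls. At an unadjusted p under 0.05, 0 were higher and 2 lower (limma), beside 4.57% and 5.69% of all genes kept. The smallest p was that of Pfdn6, at 5588, 3486 and 5266 against 6316, 5881 and 6502 (-0.41 ± 0.17, adjusted p = 0.459, limma; -0.20 without knockout replicate 2).

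**Figure D2:**
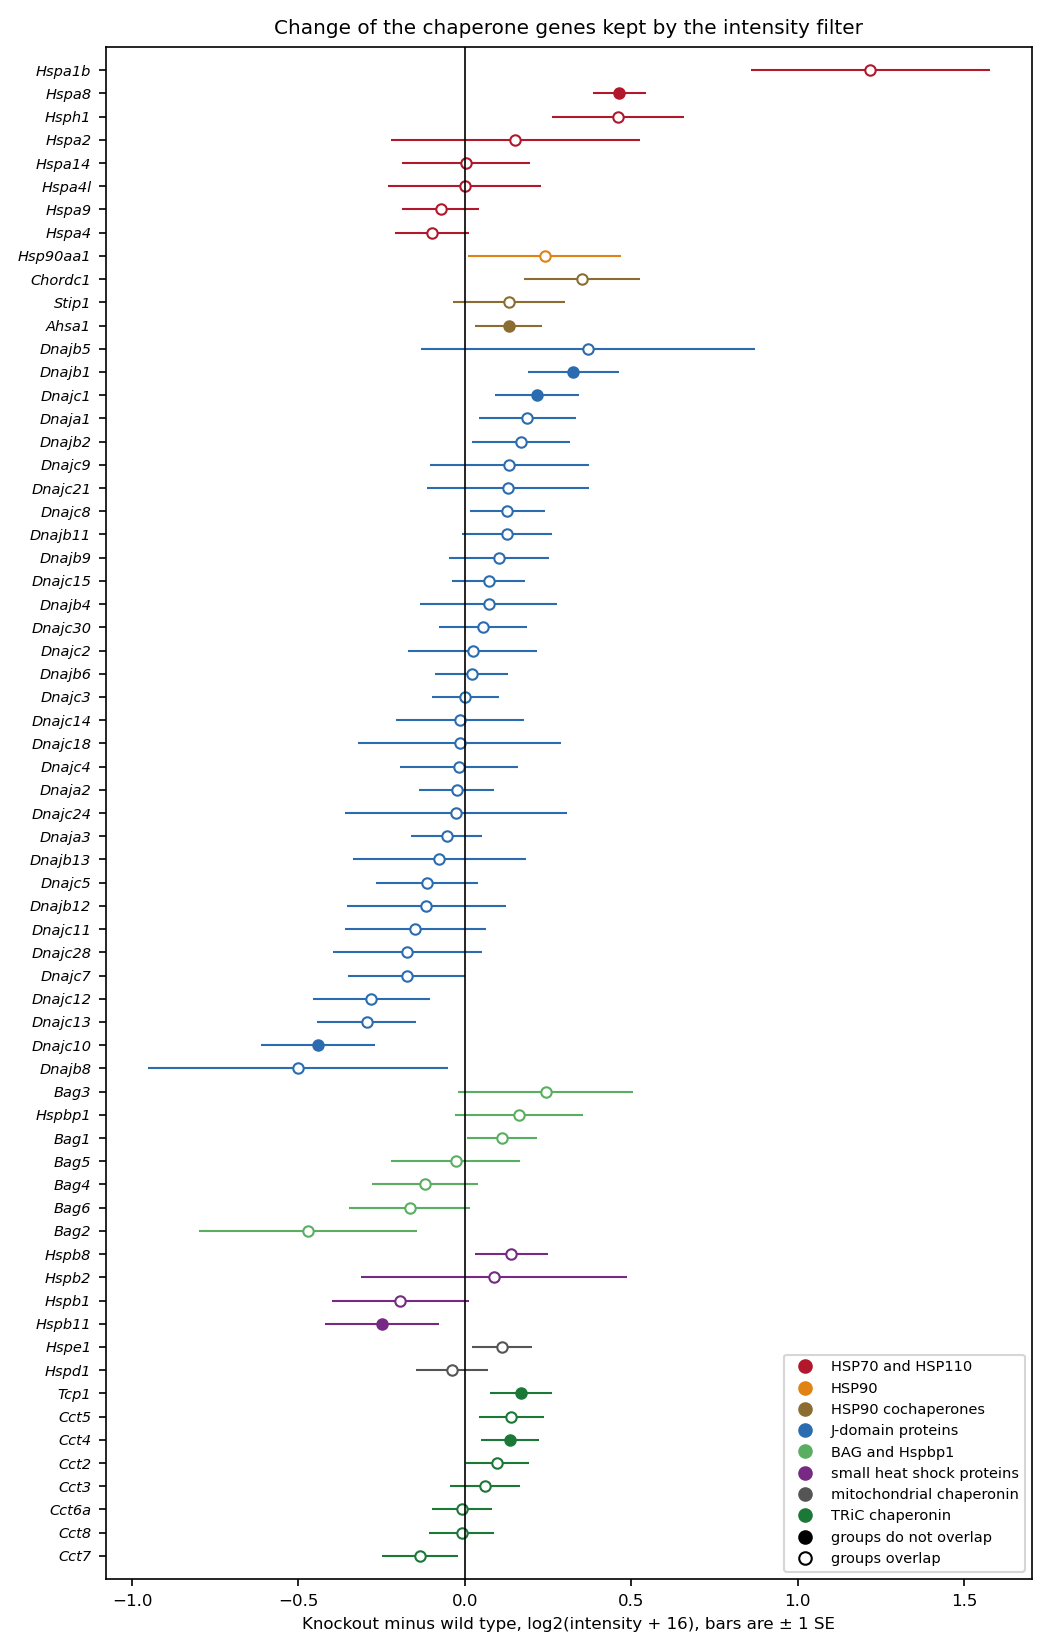
Change of each of the 65 kept chaperone genes, as knockout minus wild type on log2(intensity + 16), by class, with bars of 1 SE (n = 3 per group). Filled points mark genes whose groups do not overlap, 6 to the right and 2 to the left of 0. Most points lie near 0 and the HSP70 and HSP110 class reaches furthest, to 1.22 for Hspa1b.

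The 12 members below the filter were Hspa1a, Hspa1l, Hspa12b, Dnaja4, Dnajb3, Dnajb7, Dnajc5b, Dnajc17, Dnajc27, Hspb3, Hspb7 and Cct6b. Among them 1 was apart and higher (Hspa1a, 8.33%, beside 5.8% of all genes below the filter) and 2 were apart and lower (16.7%, beside 4.12%). The lower ones were named for that. Dnaja4, a HSP40 related to Dnaja1, read 163, 68.4 and 19.1 in knockout and 281, 301 and 284 in wild type. That was its brightest probe set, and the others differed from it: one read 250.2, 173 and 47.2 against 41.3, 15.3 and 51.0, with overlapping groups and a change of 1.57, and the last overlapped at -0.27. The direction of Dnaja4 is thus unsettled here. Hspb3, a small heat shock protein of muscle, with 1 probe set, read 137, 82.2 and 109 against 282, 291 and 217. Their adjusted p-values in the fit without the filter were 0.480 and 0.632 (limma), and at such signals the differences are loosely set.

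The knockout arrays did not carry the chaperone signals alike. The median deviation of the 65 members from the wild-type mean was 0.09 in knockout replicate 1, 0.04 in replicate 2 and -0.06 in replicate 3, beside -0.03, 0.03 and 0.02 in the wild-type arrays. Knockout replicate 1 was the highest of the 6 arrays for 22 members (33.8%, against 17.8% of all genes kept). Knockout replicate 3 was the highest for 6 (9.23%, against 18.7%) and the lowest for 21 (32.3%, against 21.0%). Replicate 1 exceeded replicate 3 in 48 members (73.8%), where 51.2% of all genes did so. By class, replicate 1 stood at a median of 0.41 over the 8 HSP70 and HSP110 genes and at 0.83 for Hsp90aa1, but at 0.04 over the 8 TRiC genes. In other classes knockout replicate 2 stood higher, at 0.38 against 0.12 in replicate 1 over the 3 HSP90 cochaperones and at 0.22 against 0.0055 over the BAG genes and Hspbp1. The count of members at an unadjusted p under 0.05 was 5 with all arrays, 2 without knockout replicate 1 and 8 without knockout replicate 3. It was 2 without wild-type replicate 2 and 3 without wild-type replicate 3. The shares of all genes with the same arrays left out were not computed, so these counts cannot be read as particular to the chaperones. The members' SD was larger in knockout than in wild type for 38 genes (58.5%), close to the 56.4% of all genes kept.

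**Figure D3:**
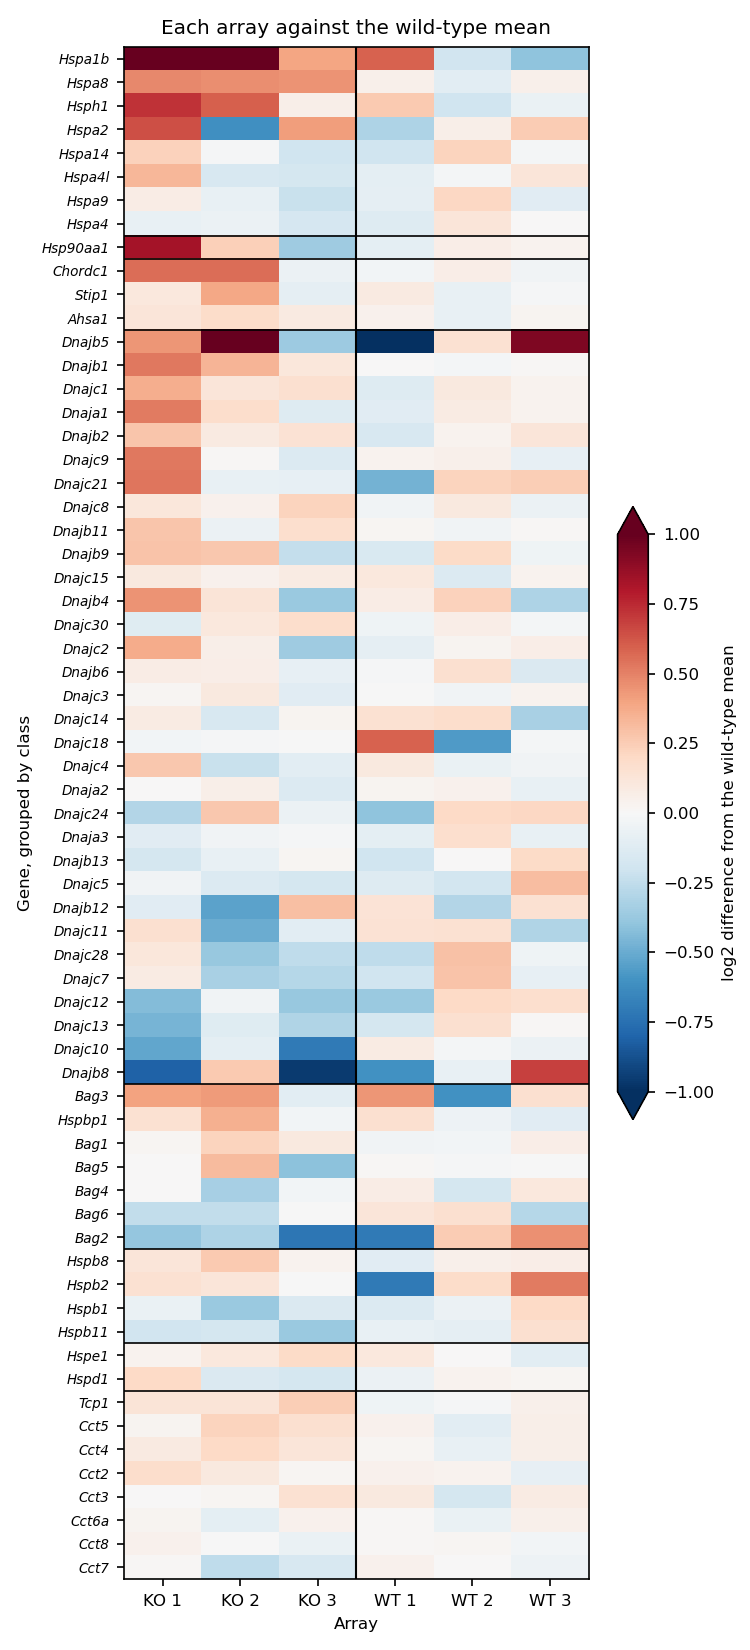
Deviation of each kept chaperone gene from its wild-type mean on each of the 6 arrays (columns), on the log2(intensity + 16) scale with red above and blue below, genes grouped by class (rows). The red column of knockout replicate 1 in the HSP70, HSP110 and HSP90 classes stands beside paler or blue cells of knockout replicate 3.

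Probe sets of the same gene often differed. Of 152 probe sets of the 77 genes 121 were kept, and 33 genes had more than 1. In 16 of these all kept probe sets had the same sign and in 17 the sign differed, with a median range of 0.24 within a gene. Hspa8, Hspa1b, Hsph1, Hsp90aa1, Dnajb1, Dnaja1 and Dnajc10 were among those of 1 sign. Cct3 was spread widely, with 5 kept probe sets from -0.33 to 0.65. Its dimmest read 1327, 1636 and 1610.4 against 1095, 808 and 1003, with groups apart (0.65 ± 0.19, adjusted p = 0.239, limma), where the brightest read 16156, 16343 and 17842 against 17182, 14250.0 and 16986.

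**Figure D4:**
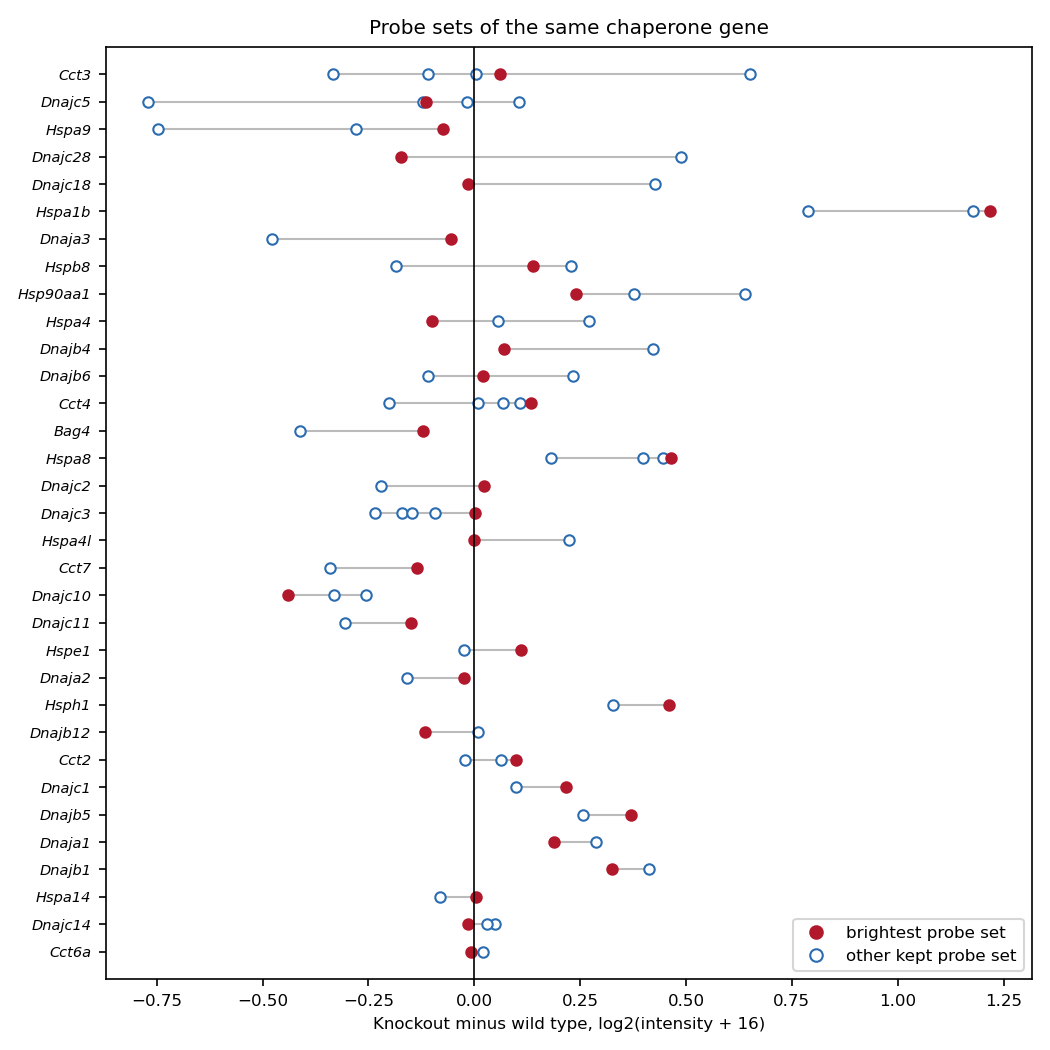
Change of every kept probe set in the 33 chaperone genes with more than 1, as knockout minus wild type on log2(intensity + 16), with the brightest probe set filled red, the others open blue and a grey line over their range. The genes are ordered by that range, and for 17 of them the points fall on both sides of 0.

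The partners of the chaperones in the pathway lists had 0 adjusted calls. For mitochondrial folding and quality control, 12 of 14 kept genes were lower and 2 higher, with a median of -0.13. Of all genes kept, 47.3% were above 0. At an unadjusted p under 0.05, 1 gene of this list was higher and 3 lower (limma), beside 4.57% and 5.69% of all genes kept. Grpel2, a nucleotide exchange factor for Hspa9, had the smallest p, at 3123, 1887 and 2411 against 4231, 4048 and 3688. Its groups are apart, with a change of -0.71 ± 0.18 and an adjusted p of 0.149. Other targets and regulators of the heat shock response had 5 higher and 3 lower of 8 kept, a median of 0.07 (-0.02 without knockout replicate 1) and 0 adjusted calls (1 higher and 1 lower at an unadjusted p under 0.05), with the smallest p for Ier5, an immediate-early gene, at 700.3, 1121 and 884 against 277, 476 and 624 (1.0 ± 0.33, adjusted p = 0.332). The cold-inducible RNA-binding protein Cirbp, whose transcript falls when cells are warmed, read 529.8, 591 and 709 against 773, 973 and 1116, with groups apart and a change of -0.63 ± 0.24 (adjusted p = 0.421, limma).

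The chaperones of the endoplasmic reticulum had 10 higher and 7 lower of 17 kept, a median of 0.05 and 0 adjusted calls. At an unadjusted p under 0.05, 2 were higher and 0 lower (limma), beside 4.57% and 5.69% of all genes kept. Hspa5 (BiP), the HSP70 of that compartment, read 64448, 56137 and 53636 against 37588, 42890.0 and 40514. All knockout arrays lay above all wild-type arrays, and its change of 0.52 ± 0.10 just missed the threshold (adjusted p = 0.0504, limma). Hsp90b1 (GRP94), the HSP90 of that compartment, stood at -0.09 ± 0.15 with overlapping groups. Immediate-early genes had 1 adjusted call, Egr1, which fell from 2723 ± 406 to 1000.5 ± 304 (SD, n = 3 each; -1.47 ± 0.23, adjusted p = 0.0267, limma), among 9 higher and 7 lower of 16 kept, with 2 higher and 1 lower at an unadjusted p under 0.05. Clock genes had 5 higher and 9 lower of 14 kept with 0 adjusted calls, while 0 were higher and 4 lower at an unadjusted p under 0.05, beside 4.57% and 5.69% of all genes kept. The smallest p was that of the clock output gene Dbp (-0.35 ± 0.10, adjusted p = 0.234).

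Markers of the cell types of liver moved with the groups in part. Over all genes kept, 47.3% were above 0, and 4.57% were higher and 5.69% lower at an unadjusted p under 0.05 (limma). Of 15 kept hepatocyte markers 14 were higher in knockout, with a median of 0.11, 3 higher at an unadjusted p under 0.05 and the smallest p for Apoc3 (0.40 ± 0.08, adjusted p = 0.0668, limma). Their summed signal ran from 2014819 to 2335300.0 in knockout and from 1908284 to 2075526 in wild type. Of 14 kept Kupffer cell and macrophage markers 13 were lower (median -0.23, sums of 28969 to 41932 against 34621 to 45109). At an unadjusted p under 0.05, 0 of them were higher and 0 lower (limma), with the smallest p for Cd68 (0.0629). Cd68 read 403, 49.3 and 507 against 708, 652 and 529.97, and its change of -1.40 rests on knockout replicate 2, without which it was -0.45. Without that array 14 of the 14 Kupffer cell and macrophage markers were lower, and without knockout replicate 1 10 of 14 were. Of 11 kept stellate cell and fibroblast markers 10 were lower (median -0.22; sums of 31347 to 38696 against 35912 to 47230), with 3 lower at an unadjusted p under 0.05 and the smallest p for Col3a1 (-0.61). Endothelial markers had 4 higher and 9 lower of 13 kept, with 0 higher and 0 lower at an unadjusted p under 0.05 (limma). Their sums were 29030.0 to 30283 against 29980.3 to 30169. Of 16 lymphocyte and neutrophil markers 3 were kept and of 4 red cell markers 1 was kept, and 0 of all these markers passed the adjusted threshold. No marker was listed at 0. The median of the chaperone genes, 0.023, is smaller than that of the hepatocyte markers, and the part of cell composition in the chaperone values was not tested.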

How the data were processed

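Liver RNA of 6 mice was measured on Affymetrix arrays, and the arrays were processed with GCOS 1.2, per the submitters' processing notes. What the authors deposited are linear intensities per probe set in arbitrary units, 1 column per array. How they were scaled was not given in the sources used here. Of 22690 probe sets 64 were controls and stayed out. By the platform annotation 20380 of the rest had 1 gene, 691 had several and 1555 had none, and only those with 1 were used for genes. Of the gene IDs 20351 matched RefSeq (GRCm38.p6) and 0 symbols changed.

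The test was limma 3.58.1 under R 4.3.3 (lmFit, then eBayes with the intensity trend) on log2(intensity + 16), all 6 arrays in 1 fit with no covariate, on the upper 60% of probe sets by mean, with Benjamini-Hochberg adjustment over all 13576 at 0.05. Background was the 95th percentile of 27 dim bacterial control probe sets on each array. Genes named were members past the adjusted threshold, members at an unadjusted p under 0.05 whose groups do not overlap, the best known members of each class, list genes past the threshold or with the smallest p of their list, Chga, Hspa5 and Hsp90b1, beside those marked as chosen after their values were seen. The members and gene lists were chosen with earlier results of these data known. The fit was tested on simulated data. The number of arrays limits precision: for 1 value, 3 arrays against 3 cannot give an exact permutation p below 0.1. Alternatives were pseudocounts of 1, 64 and 256, quantile normalization, median centring, no filter, the upper 40%, array weights, eBayes without trend, a block on the replicate number, the mean or smallest-p probe set of a gene, platform symbols, each array left out and, chosen after seeing the data, no x_at probe sets and gene lists with each array left out.

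Same-numbered knockout and wild-type arrays correlated at -0.059, -0.060 and -0.065 in their deviations from the group means. Arrays with unlike numbers lay between -0.020 and 0.076. The numbers thus showed no pairing in these values, which cannot exclude a shared origin or batch, and the labels name no pairs.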

Additional observations from a re-analysis of the deposited data

How the results depend on the processing

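Hspa8 stayed the only adjusted call with the other pseudocounts, quantile normalization, the upper 40%, array weights, the smallest-p probe set and platform symbols. The count of adjusted calls fell from 1 to 0 with median centring, no filter (7 members at an unadjusted p under 0.05), eBayes without trend, the mean of all kept probe sets, no x_at probe sets, and each array left out (0 to 0). The adjusted p of Hspa8 was then 0.0506, 0.108, 0.352, 0.369 (change 0.37) and 0.607 (change 0.18), all with limma; the cause was not tested. The labels name no pairs of samples. With the replicate number as a block all the same, the count was 1 adjusted call, Hspa1b (adjusted p = 0.0381) in place of Hspa8 (0.151). In that fit 4 members had an unadjusted p under 0.05 (limma).

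The 5 members at an unadjusted p under 0.05 became 3 without trend, 8 with the smallest-p probe set and 2 to 8 with 1 array left out. The smallest-p setting picks each probe set by its p, which by itself raises the count. Shares of all genes under these settings were not computed. The 8 members whose groups do not overlap became 10 to 20, as fewer arrays overlap less. The median change of 0.023 became 0.10 with the smallest-p probe set and ran from -0.027 to 0.070 with 1 array left out. Changes near 0 turned sign. So did the larger changes of Hsp90aa1 and Bag3, each 0.24 with all arrays, when 1 array was left out. Hspa4 was 0.076 with the mean of its probe sets and 0.27 with the smallest p. Cct6a was 0.0063 with median centring, 0.0059 with the mean and 0.020 with the smallest p, and Cct8 was 0.0050 with median centring. With 1 array left out, Hsp90aa1 ran from -0.058 to 0.54, Hspa9 from -0.15 to 0.028, Hspd1 from -0.16 to 0.030, Dnaja3 from -0.10 to 0.030, Bag3 from -0.060 to 0.46, Cct3 from -0.027 to 0.11, Cct6a from -0.040 to 0.036 and Cct8 from -0.034 to 0.017. Of 539 values of single genes under other settings 509 kept direction and side of the threshold, 17 reversed, 12 lost a call and 1 gained it.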

Other observations

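Hspa1a and Hspa1b lie side by side on chromosome 17, within the region of the major histocompatibility genes. Of the 30 nearest kept genes around them, 15 on each side, 15 were higher and 15 lower in knockout, with a median change of -0.033. At the adjusted threshold 0 were called with limma. At an unadjusted p under 0.05 there were 1 higher and 3 lower, beside the 4.57% and 5.69% of all genes kept. The higher one was H2-D1 (0.44 ± 0.15). The lower ones were Neu1, Ddx39b (-0.37 ± 0.17) and H2-Q10 (-0.34 ± 0.11), all named after their values were seen. Neu1 read 1298, 1266 and 1268 in knockout against 2811, 2058 and 2319 in wild type. Its groups are apart, and its change of -0.89 ± 0.16 just missed the threshold (adjusted p = 0.0504, limma).

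Lonp1, the mitochondrial matrix protease, stood apart from the other genes of mitochondrial folding and quality control, and is named after its values were seen. It read 8835, 6821 and 6470.4 in knockout and 3240.0, 5852 and 2853 in wild type, with groups apart and a change of 0.95 ± 0.24 (adjusted p = 0.150, limma), while 12 of the 14 kept genes of that list were lower.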
